A study of Mus musculus with 32 samples.

Results

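Transcripts of secreted proteins are described here: the serpins Serpina1e and Serpina3c and the elastase Cela2a, which are 3 of the 306 genes in the deposited table of experiment T. They were found by gene symbol, and they were chosen by their higher expression values with sodium oxybate (SXB) than with vehicle in that same table. Their difference between SXB and vehicle is therefore given as a description, with no test. None of the 3 is among the 242 genes listed for the other experiment, P, so they are not analysed there.

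The study sequenced liver RNA of C57BL/6J mice given vehicle or SXB, a narcolepsy drug that is the sodium salt of gamma-hydroxybutyrate, in work on body weight in developing and established obesity. Experiment T has 8 libraries labelled T_Vehicle and 8 labelled T_SXB, and both groups are livers of the same strain with no other allele or agent in the labels. Dose, duration, diet, sex and age are not given in the sources used here. No label says whether 2 libraries can share a mouse, and any p-value measures the spread between libraries, which may be technical.

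Serpins are protease inhibitors that offer a bait loop to a serine protease, trap the enzyme in a covalent complex and are spent in doing so. Human alpha-1-antitrypsin, made by hepatocytes and the chief plasma inhibitor of neutrophil elastase, is encoded by a single gene, SERPINA1, which in the mouse has been duplicated into several near-identical genes, Serpina1e among them. Serpina3c belongs to the mouse expansion of the antichymotrypsin gene SERPINA3 and also carries the name kallikrein-binding protein. Cela2a is a digestive serine protease that pancreatic acinar cells secrete as a zymogen, so it is on the enzyme side of the protease and inhibitor balance.

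In the annotation GENCODE M21 of build GRCm38, Serpina1e lies on chromosome 12 from 103946931 to 103958975 and Serpina3c on the same chromosome from 104146382 to 104153870, both on the minus strand. They stand 187.4 kb apart in a cluster of 28 Serpina genes and pseudogenes, 23 of them protein coding, that spans 799.5 kb. Cela2a lies on chromosome 4 from 141814962 to 141826160, on the minus strand, within the longer annotated gene Ctrc, which encodes the related pancreatic protease chymotrypsin C. It also overlaps Casp9 on the other strand. The coding transcripts have 5 exons in both serpins and 8 in Cela2a.

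The promoter windows of the 3 genes are shown because the members, chosen for higher values with SXB, differ in textbook expression. Serpina1e is a hepatocyte gene and Cela2a a pancreatic one. Each line gives 250 bases before and 50 bases after the RefSeq transcript start in GRCm38.p6, 5' to 3' on the minus strand. For Serpina1e this start lies inside the GENCODE M21 gene, which has 2 transcripts and extends upstream to 103958975. Sequence before a start farther upstream was not searched. The windows are chr12:103956848-103957147, chr12:104153823-104154122 and chr4:141825956-141826255 in the order of the lines, and capitals mark the motif matches named after them.
Serpina1e: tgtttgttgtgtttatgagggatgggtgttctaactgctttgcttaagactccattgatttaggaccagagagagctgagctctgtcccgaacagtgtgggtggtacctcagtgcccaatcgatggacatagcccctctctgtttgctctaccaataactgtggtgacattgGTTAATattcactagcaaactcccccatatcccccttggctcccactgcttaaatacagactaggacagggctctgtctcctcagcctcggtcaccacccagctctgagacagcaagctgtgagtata
Serpina3c: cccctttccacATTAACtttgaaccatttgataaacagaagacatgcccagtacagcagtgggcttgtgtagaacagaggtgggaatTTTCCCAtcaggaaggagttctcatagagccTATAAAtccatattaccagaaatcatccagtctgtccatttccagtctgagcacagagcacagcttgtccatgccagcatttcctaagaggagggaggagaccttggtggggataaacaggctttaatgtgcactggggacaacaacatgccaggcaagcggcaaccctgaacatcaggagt
Cela2a: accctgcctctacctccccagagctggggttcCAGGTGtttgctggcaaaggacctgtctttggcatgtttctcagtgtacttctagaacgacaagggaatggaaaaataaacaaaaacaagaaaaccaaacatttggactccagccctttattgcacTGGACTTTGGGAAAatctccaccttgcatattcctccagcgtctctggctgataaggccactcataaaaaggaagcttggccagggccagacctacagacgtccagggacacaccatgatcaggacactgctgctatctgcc

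In all, 7 motifs were searched on both strands in these windows and, for background, in 27025 promoter windows of the same length, 1 for each gene symbol. The core GTTAAT of the liver factor HNF1 stands at position -78 of Serpina1e and, on the opposite strand, at position -239 of Serpina3c, and 7.2% of all windows hold it. The windows of Serpina1a, Serpina1b, Serpina1c and Serpina1d, 63.3% to 69.3% identical to that of Serpina1e, hold the core as well. Serpina3c alone of the 3 has an exact match to TATAAA, the letters searched for a TATA box, at position -132. These letters occur in 14.2% of all windows, and looser TATA-like stretches were not searched.

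The Cela2a window has the letters searched for the pancreatic factor PTF1, the E-box CACCTG at position -218 and the TC-box TTTCCCA at position -85, both on the opposite strand. These occur in 20% and 8.0% of all windows, and TTTCCCA is also found in Serpina3c at position -163. A match to CAAAGTCCA, a binding sequence of HNF4, begins at position -92 of Cela2a on the opposite strand, overlaps the TC-box and occurs in 0.5% of all windows. The motifs TTGCGCAA of C/EBP and TTCNNNGAA of STAT factors, found in 0.2% and 8.5% of all windows, had no match in the 3 windows. A match is a run of letters and no evidence of binding.

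Which reads can be told apart differs between the members. The coding sequence of Serpina1e has 1239 bases and differs from Serpina1c at 44 of them, from Serpina1b at 46 and from Serpina1d at 46, which is 96.3% to 96.4% identity. Against Serpina1a it has 43 mismatches and 69 gap bases. Of the 1426 stretches of 150 bases, the read length, in its 1575-base transcript, 108 (7.6%) also occur without a mismatch in transcripts of these genes or of Gm8893. The closest relative of Serpina3c is Serpina3m at 88.8%, and 0 of its 2064 stretches occur in another gene. Cela2a is at most 62.0% identical to the other pancreatic proteases compared, yet 161 of its 921 stretches (17.5%) also occur in a transcript of Ctrc, with which it shares sequence on the same strand. The value of Serpina1e may thus include reads of its paralogs, and that of Cela2a reads of Ctrc, since the sources used here do not say how shared reads were assigned. Serpina1a to Serpina1d and Ctrc are not among the 306 genes and are not analysed here.

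**Figure D1:**
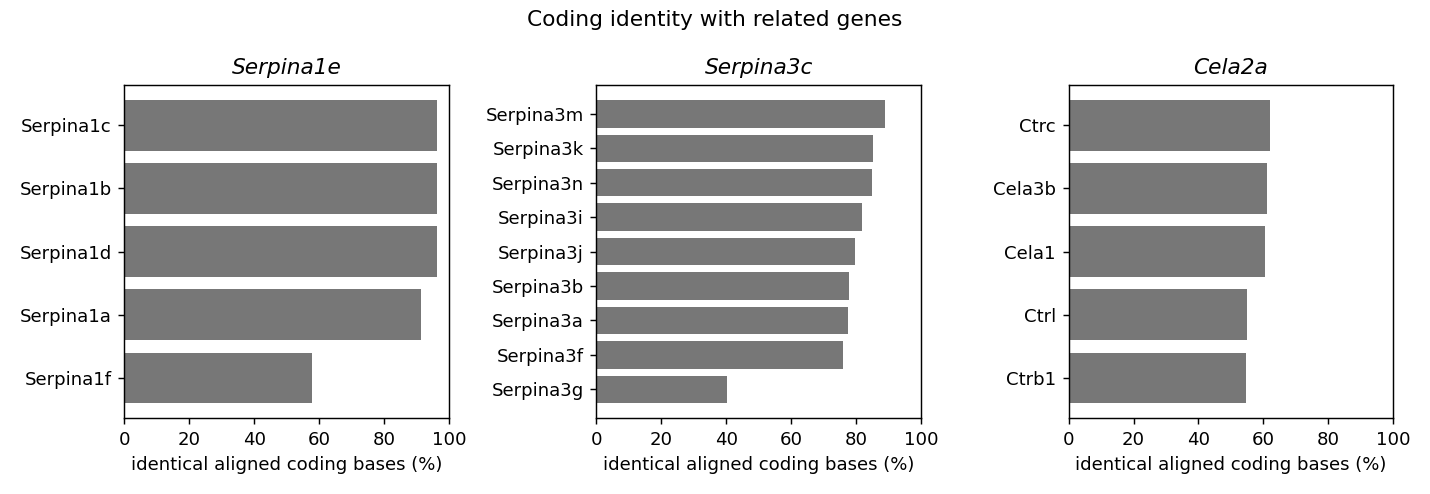
Bars give the share of aligned coding bases (percent, global alignment) that are identical between each member and related genes in GENCODE M21. The bars of Serpina1e reach 96.4% for Serpina1c and those of Cela2a end at 62.0% for Ctrc; the short bar of Serpina3g reflects its coding sequence of 744 bases.

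Libraries 16 and 18 of experiment T need care. Library 16 is labelled T_Vehicle and library 18 T_SXB, but each stands in the deposited table among the columns of the other group. The members' differences and correlations are given with them, under their labels, and without them. A second split concerns libraries 1 to 4, of which 3 are SXB and 1 is vehicle: the mitochondrial transcript mt-Atp6 was 486 or more in them and 44.8 or less in the other 12. Its part in the results was not tested. The values are the authors' normalised expression, rounded to 0.01, and sequencing depth is unknown.

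Serpina1e was high in several SXB libraries and not in others. In the vehicle libraries 4, 6, 8, 10, 11, 14, 15 and 16 its values were 2517, 4034, 3555, 2568, 1461, 6720, 2533 and 956. In the SXB libraries 1, 2, 3, 7, 9, 12, 13 and 18 they were 13383, 14484, 4479, 7584, 2377, 9281, 13431 and 1764. In all, 5 SXB libraries lay above the highest vehicle library, 14, while libraries 3, 9 and 18 lay inside the vehicle range, so the groups overlap.

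The mean of Serpina1e was 3043 ± 1788 (SD, n = 8) with vehicle and 8348 ± 5131 (SD, n = 8) with SXB, a ratio of 2.74. The difference of SXB minus vehicle on the log2(value + 1) scale was 1.33 (SE 0.50). Without libraries 16 and 18 the means were 3341 ± 1703 (SD, n = 7) and 9288 ± 4739 (SD, n = 7), the ratio 2.78 and the log2 difference 1.39 (SE 0.43). Leaving out any other library as well kept the ratio between 2.52 and 3.34. In a bulk sample, more cells of a type and more RNA per cell cannot be told apart.

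Serpina3c was low in every library. The vehicle values, in the same order of libraries, were 0.09, 0.09, 0.07, 0.15, 0.12, 0.14, 0.15 and 0.62. Those with SXB were 0.87, 1, 0.44, 0.13, 0.18, 0.43, 0.86 and 0.05. Apart from library 16, all vehicle libraries were at 0.15 or below, and 6 SXB libraries exceeded that level. Of the other SXB libraries, library 7 lay within the vehicle range and library 18 was the lowest of all 16. At these levels the rounding of 0.01 is a sizeable part of a vehicle value.

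The mean of Serpina3c was 0.179 ± 0.181 (SD, n = 8) with vehicle and 0.495 ± 0.372 (SD, n = 8) with SXB, a ratio of 2.77. Without libraries 16 and 18 it was 0.116 ± 0.0326 (SD, n = 7) and 0.559 ± 0.351 (SD, n = 7), a ratio of 4.83. Library 16 alone sets most of that gap, as the ratio was 4.28 when only it was left out. The log2(value + 1) difference, which understates changes at such low values, was 0.32 (SE 0.14) in 16 libraries and 0.45 (SE 0.12) in 14.

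Cela2a was also low, though above 0 in all 16 libraries. With vehicle it was 0.39, 0.14, 0.22, 0.39, 0.63, 0.53, 0.64 and 0.31, in the order of libraries used above. With SXB it was 0.96, 1.55, 0.65, 0.72, 0.46, 0.86, 1.07 and 0.08. In all, 6 SXB libraries lay above the highest vehicle library, 15 at 0.64, while library 9 lay in the vehicle range and library 18 below it.

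Means of Cela2a were 0.406 ± 0.183 (SD, n = 8) with vehicle and 0.794 ± 0.435 (SD, n = 8) with SXB, a ratio of 1.95 and a log2(value + 1) difference of 0.32 (SE 0.14). Without libraries 16 and 18 they were 0.42 ± 0.194 (SD, n = 7) and 0.896 ± 0.352 (SD, n = 7), with a ratio of 2.13 and a difference of 0.41 (SE 0.12). Its ratio stayed between 1.87 and 2.34 when any other library was left out as well.

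**Figure D2:**
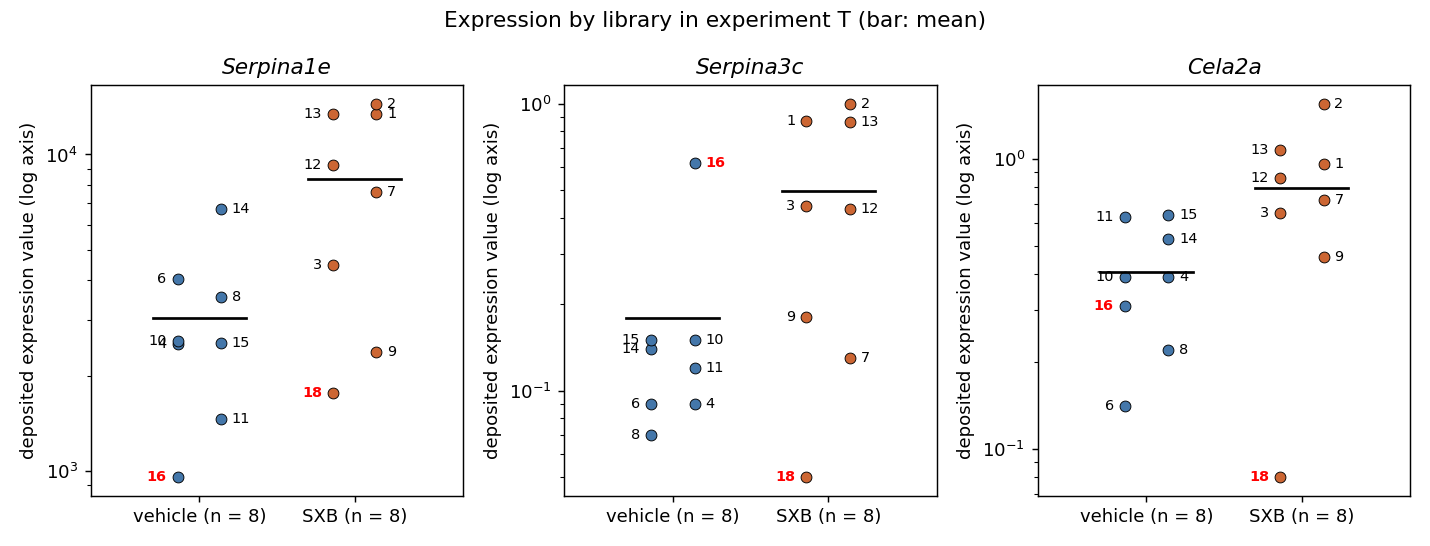
Deposited expression values (log axis) of each member in the 8 vehicle and 8 SXB libraries of experiment T, with library numbers beside the points, bars at the group means and libraries 16 and 18 in red. Library 18 is the lowest of all 16 for Serpina3c and Cela2a, and library 16 is the lowest for Serpina1e but the fourth highest for Serpina3c.

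Libraries 16 and 18 do not behave alike across the members. Library 18, labelled SXB, ranked 14 from the highest of 16 for Serpina1e, and 16 for both Serpina3c and Cela2a. Library 16, labelled vehicle, ranked 16 for Serpina1e and 13 for Cela2a, among the low values, but 4 for Serpina3c at 0.62, among the SXB libraries. Thus for library 16 the serpin Serpina3c stood with the SXB group, and Serpina1e and Cela2a stood with the vehicle group.

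The authors' deposited table gives a ratio of 2.46 for Serpina1e, 5.06 for Serpina3c and 2.16 for Cela2a. That table holds libraries 16 and 18 among the columns of the other group. These ratios, the p-values and the selection may therefore come from groups other than the labelled ones. In the same order of genes, the ratios of means were 2.74, 2.77 and 1.95 under the labels. Without libraries 16 and 18 they were 2.78, 4.83 and 2.13. The deposited ratios of Serpina3c and Cela2a were nearer to those without these libraries than to those under the labels. That of Serpina1e was below both. Under the labels the log2 ratio of means of Cela2a was 0.97, against a deposited log2 ratio of 1.11. Ratios with both libraries grouped by column were not computed, so the grouping behind the deposited ratios was not tested. In the authors' deposited table the adjusted p was 0.00049 for Serpina3c, 0.222 for Serpina1e and 0.381 for Cela2a, and the members ranked 10, 126 and 207 of the 306 listed genes by unadjusted p. All listed genes were preselected by the authors on these libraries, for a log2 ratio larger than 1, up or down, and a raw p under 0.05. Across the 306 genes limma called 0 under the labels (0.0%; 90 had an unadjusted p under 0.05), and 56 (18.3%) without libraries 16 and 18, a count that ran from 3 to 76 when 1 more library was left out. Nothing about the members is read from these shares.

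Libraries 1 to 4 carried part of the high values with SXB. Without them the ratio was 2.21 for Serpina1e, 1.72 for Serpina3c and 1.56 for Cela2a, from 7 vehicle and 5 SXB libraries. The log2(value + 1) differences were then 0.99 (SE 0.61), 0.14 (SE 0.15) and 0.20 (SE 0.16), each smaller than in all 16. When libraries 16 and 18 were left out too, the ratios were 2.35, 3.33 and 1.83, from 6 vehicle and 4 SXB libraries. When a term for libraries 1 to 4 was added to the fit over all 16, the log2(value + 1) differences were 1.18 (SE 0.52), 0.25 (SE 0.14) and 0.27 (SE 0.14). No value within libraries 1 to 4 is given, because they hold a single vehicle library.

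**Figure D3:**
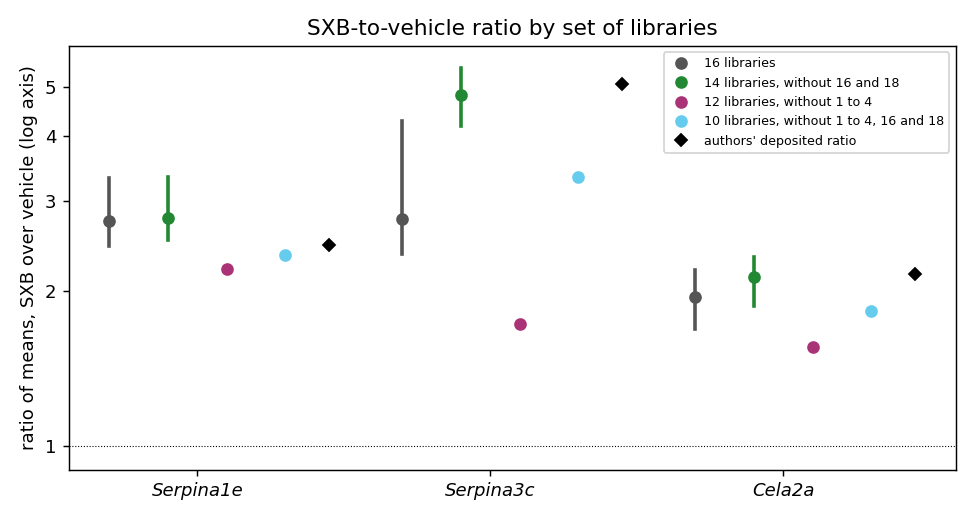
Ratio of the SXB mean to the vehicle mean (log axis) for each member in 4 sets of libraries, with lines for the range when each further library is left out (2 of the sets), and the authors' deposited ratio as a diamond. The ratio of Serpina3c moves from 2.77 to 4.83 when libraries 16 and 18 are left out, and those of Serpina1e and Cela2a move from 2.74 to 2.78 and from 1.95 to 2.13.

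The members were chosen by the difference between groups, not by how they vary among libraries of 1 label. Libraries 16 and 18 are exceptions to that. Library 18 stands among the vehicle columns, so its low values may have entered the authors' selection. Library 16, labelled vehicle, stands among the SXB columns, so its values, such as 0.62 for Serpina3c, may have entered it too. Tests in the SXB group that include library 18, and in the vehicle group that include library 16, are not independent of the choice. Serpina1e and Cela2a put the 8 SXB libraries in the same order, from library 18 as the lowest through 9, 3, 7, 12, 1 and 13 to library 2 as the highest. Spearman's rho was therefore 1 and Pearson's r on log2(value + 1) was 0.929. Over 3 pairs of members in 2 groups, the adjusted p-values were 0.000298 and 0.000149 (exact permutation test, two-sided, n = 8), the raw ones being 4.96e-05 and 2.48e-05, the smallest that 40320 pairings can give. Without library 18, the 7 other SXB libraries gave an r of 0.881 and adjusted p-values of 0.00238 for rho and 0.0351 for r (exact permutation test, n = 7).

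Serpina3c followed both less tightly in the SXB group. Its r was 0.843 with Serpina1e and 0.869 with Cela2a, and its rho was 0.857 with each. The raw p-values were 0.0131 and 0.00107 for r, and 0.0107 for both rho (exact permutation test, two-sided, n = 8). The adjusted p-values were 0.0261 and 0.0032 for r, and 0.0214 for both rho. Library 7 stands apart, with 7584 for Serpina1e but only 0.13 for Serpina3c. Without library 18 the relation of the serpins to each other no longer passed (r = 0.775, adjusted p = 0.0877; rho = 0.786, adjusted p = 0.096; exact permutation test, n = 7). It was also lost on both measures when library 1, 2 or 13 was left out, with r between 0.813 and 0.818. The rho of Serpina3c with Cela2a lost its call in the same 4 omissions (0.786 to 0.821), whereas its r kept it in each of the 8 omissions.

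With the 2 libraries farthest from the median of the first gene of a pair left out, r in the SXB group was 0.822 for Serpina1e with Cela2a, 0.723 for Serpina1e with Serpina3c and 0.805 for Serpina3c with Cela2a. None of these r passed, with adjusted p-values from 0.106 to 0.152 (exact permutation test, n = 6). The rho of Serpina1e with Cela2a cannot move from 1 by leaving out libraries, so its omissions say nothing of stability. With libraries 1 to 3 left out, 5 SXB libraries remain, and no correlation was computed over fewer than 6. In those 5, from lowest to highest Serpina1e, the libraries were 18, 9, 7, 12 and 13, and Serpina3c followed this order except that library 7, at 0.13, was below library 9, at 0.18.

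Among vehicle libraries no pair passed. Serpina1e with Serpina3c had r = -0.672 (p = 0.084, adjusted p = 0.126, exact permutation test, n = 8), and -0.06 without library 16. Serpina1e with Cela2a had r = -0.133 and rho = -0.24. Without the 2 farthest libraries these were -0.859 (raw p = 0.0306, adjusted p = 0.106) and -0.783 (raw p = 0.0722, adjusted p = 0.204), opposite in sign to the SXB group (exact permutation test, n = 6). In 8 libraries Serpina3c with Cela2a had r = -0.047 and rho = 0.412, or 0.725 and 0.679 without library 16. Raw p-values were 0.749 and 0.895 for the r of the pairs with Cela2a in 8 libraries, and 0.567 and 0.304 for rho, while the serpins had a rho of -0.398 (p = 0.325), and these adjusted p-values were 0.39 or more (exact permutation test, n = 8). Whether the correlations differ between the groups was not tested.

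**Figure D4:**
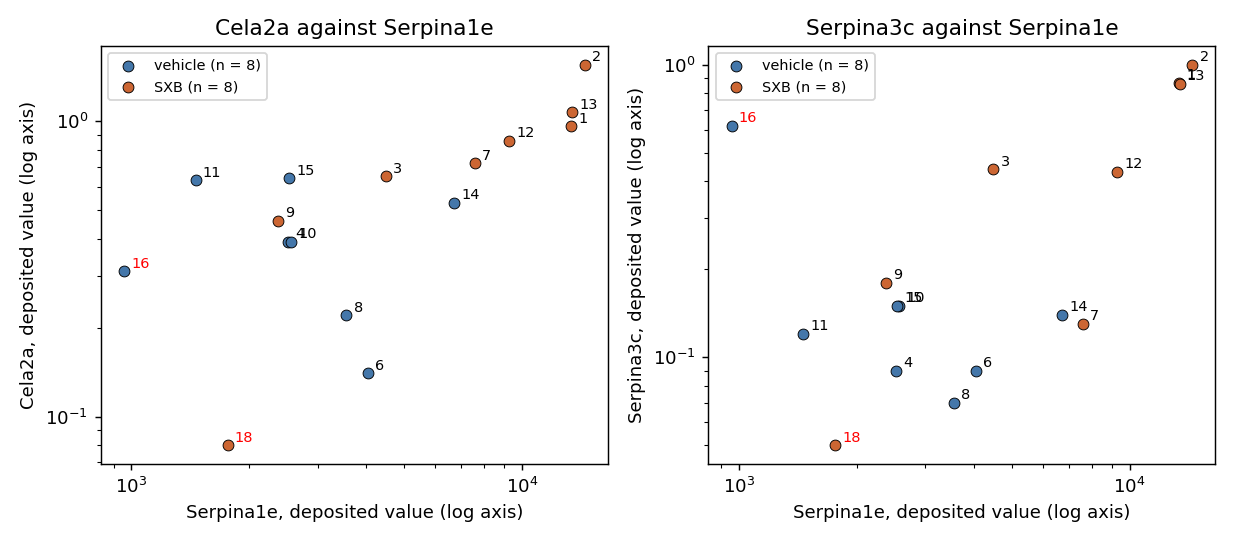
Cela2a (left) and Serpina3c (right) against Serpina1e, deposited values on log axes, 1 point per library with its number, vehicle in blue and SXB in orange. The 8 SXB points rise without an inversion in the left panel (rho = 1), while in the right panel library 7 falls to 0.13 and vehicle library 16 sits at 0.62 with the lowest Serpina1e.

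Other listed genes shared this order in part. Of 232 other genes above 0 in at least 12 libraries, 10 had a rho with Serpina1e over the SXB libraries at least as high as that of Serpina3c (0.857), and 20 had one as far below 0, with a median of -0.15. Over the vehicle libraries these counts were 1 and 4. Serpina3c and Cela2a are themselves among the 232 and meet the level in the SXB libraries, so fewer than 10 genes outside the members did. The genes come from the same libraries and were selected for the same contrast, so the counts describe these libraries only.

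Over all 16 libraries the gene most like Serpina1e was Enho, which encodes the secreted peptide hormone adropin. Its rho was 0.909, and 0.903 without libraries 16 and 18, against a median of -0.09 for the 232 genes. Enho had a lowest, median and highest value of 1.2, 3.23 and 9.42 with vehicle and 1.96, 10.7 and 19.3 with SXB, and within the SXB group its order equalled that of Serpina1e (rho = 1). The next were Dnai1, a dynein chain of motile cilia (0.794), Fam222a (0.777) and Slc13a2, a sodium-coupled dicarboxylate carrier (0.759).

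Serpina3c was most like Eif4ebp3, whose protein binds the cap-binding factor eIF4E and holds back translation, with a rho of 0.859 over 16 libraries and 0.844 over 14. Eif4ebp3 ran from 12.03 through a median of 32.7 to 134.7 with vehicle and from 13.5 through 122.2 to 151.2 with SXB. Then came the unnamed model E230001N04Rik (0.83), the centrosomal protein gene Cep85 (0.773) and Lmod2, an actin nucleator of muscle (0.762). In each of these 4 genes, as in Serpina3c, library 16 held the highest value of the vehicle group. These genes may have been listed with library 16 counted as SXB. They were also picked for likeness to Serpina3c over all 16 libraries, so the shared high value is no separate finding.

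Cela2a was most like Hspa1a, an inducible heat shock chaperone (0.813), Tff3, a secreted trefoil peptide of mucous epithelia (0.796), Fam222a (0.784) and Serpina3c itself (0.752). Tff3 ran from 2.23 through 5.67 to 21.3 with vehicle and from 4.75 through 22.1 to 79.2 with SXB. Fam222a is thus the single gene named for both Serpina1e and Cela2a. Without libraries 16 and 18 the rho of the named genes other than Enho and Eif4ebp3 lay between 0.739 and 0.894. Without libraries 1 to 4 it ran more widely, from 0.598 for Lmod2 with Serpina3c to 0.852 for Dnai1 with Serpina1e. That of Serpina3c with Cela2a was then 0.61, while Enho had 0.895 and Eif4ebp3 0.928. The rule chose genes for the highest rho, so these values are a description with no test.

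**Figure D5:**
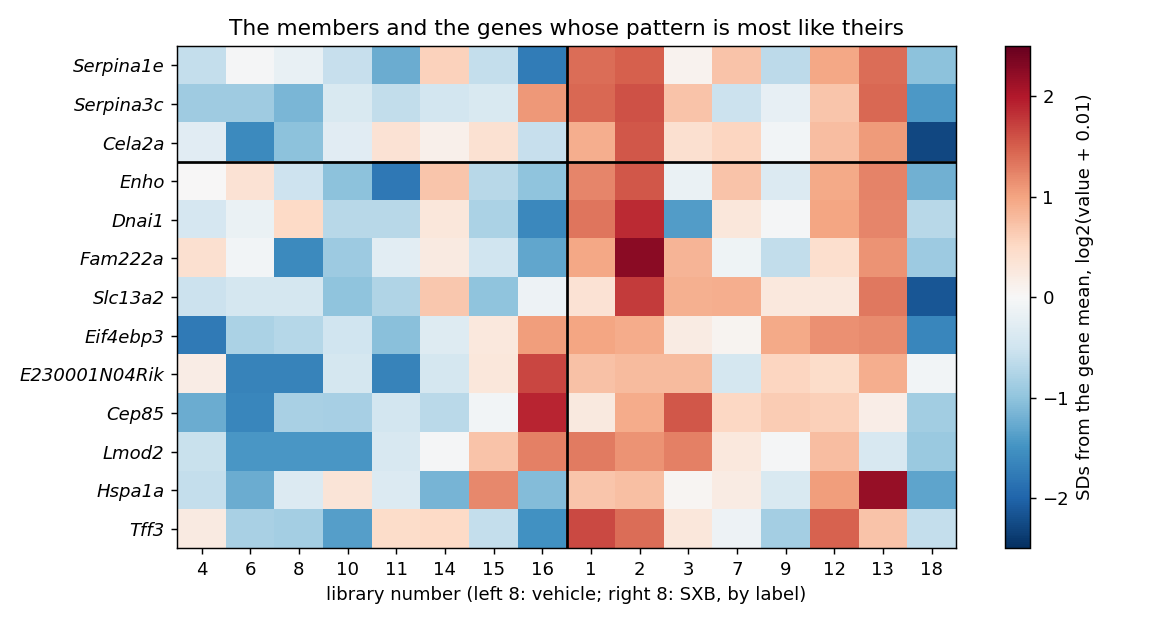
Each row is a gene and each column a library of experiment T, coloured by SDs from the gene's mean on log2(value + 0.01). The top 3 rows are the members, and the 10 rows beneath are the genes most like them. SXB library 2 is the highest for all 3 members, and vehicle library 16 is high in Serpina3c, Eif4ebp3, E230001N04Rik, Cep85 and Lmod2 but low in Serpina1e and Cela2a.

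Few other genes of protease control are in the table of T. Of all serpins, Serpina1e and Serpina3c are listed. Of 30 other secreted protease inhibitors looked for, Timp1, an inhibitor of matrix metalloproteinases, is listed. Its lowest, median and highest values were 0.07, 0.155 and 1.26 with vehicle and 0, 0.1 and 0.45 with SXB, a log2(value + 1) difference of -0.27 (SE 0.16), or -0.37 (SE 0.17) without libraries 16 and 18. Of the secreted serine proteases, Cela2a and Cfd, the complement protease adipsin, are listed, and Cfd had a difference of -1.68 (SE 0.72), or -2.36 (SE 0.62) in 14 libraries. The 2 inhibitors of serine proteases were higher with SXB in the listed values, and the differences of the 2 listed serine proteases had opposite signs. The signs of the serpins and of Cela2a were set by the choice of members, so nothing is read from them. The median difference over all 306 genes was -0.02.

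The pancreatic origin of Cela2a could be looked at only in part. Of 35 markers of pancreatic acinar cells Cela2a is the only one listed, and the other 34, among them trypsinogens, lipases and amylases, are not analysed here. Whether pancreatic tissue in the samples moved with Cela2a was not tested. Of 20 hepatocyte markers looked for, Serpina1e and Hamp, which encodes the iron hormone hepcidin, are listed. Hamp ranged from 3439 through a median of 9953 to 32560 with vehicle and from 11690 through 17080 to 27350 with SXB. Its log2(value + 1) difference was 0.85 (SE 0.35), or 1.18 (SE 0.27) without libraries 16 and 18, the same sign as that of Serpina1e.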

How the data were processed

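Per the labels' protocols, liver RNA was isolated with TRIzol and read in pairs, 150 bases from each end. Per the submitters' processing notes the tools were DESeq2, RSEM, StringTie, HISAT2 and fastp, with build GRCm38 and without versions or roles. The deposited library columns hold a signal, the authors' normalised expression value rounded to 0.01, of a type (TPM, FPKM or other) that is not named. The authors deposited a linear ratio, its log2 ratio and their p-values, raw and adjusted, under headers shifted by 1 column.

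Groups follow the treatment labels. Differences and their SE come from limma 3.58.1 (R 4.3.3) on log2(value + 1) over all 306 listed genes, and SDs and ratios of means from the deposited values. Simulated data for T (306 genes) with known changes were used to test this step: limma called 27 of 30 genes changed by 1, 29 of 30 changed by 2 (log2) and 4 of 246 unchanged ones. The simulation used normal noise without outlying libraries. Its changes were larger than the differences of Serpina3c and Cela2a, so it gives no detection rate for these genes. Correlations used all 40320 pairings (numpy 2.4.6), with Benjamini-Hochberg adjustment over 6. Promoter windows are RefSeq's (GRCm38.p6), matched for 3 of 3 members, and transcripts are GENCODE M21's.

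The members, lists and tests were chosen with earlier results of these data known, and motifs after the windows had been read. Named genes are the members, the listed genes of the protease, inhibitor, acinar and hepatocyte lists, and per member the 4 genes with the highest rho over 16 libraries among those above 0 in at least 12. Alternatives were other pseudocounts (0.1 and 0.01), trend and robust fitting, a mean of at least 1, and sets of libraries left out. Leaving out each of the 14 libraries was added after the data were seen, as were the omission of libraries 1 to 4 with 16 and 18, and that of libraries 1 to 4 from the vehicle correlations.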

Additional observations from a re-analysis of the deposited data

Results flagged for a closer look

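Serpina3c in vehicle library 16 was 0.62, against 0.15 in the next highest vehicle library, a gap of 0.855 of the group's whole range, beyond Dixon's critical value for 8 values. It was the single flag among 3 genes in 2 groups, each looked at from both ends, and chance flags about 1 in 20 groups. Library 16 is the one that stands among the SXB columns of the deposited table. Its value may have entered the authors' selection of Serpina3c, so the rate of 1 in 20 need not apply here.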

How the results depend on the processing

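Serpina1e, Serpina3c and Cela2a were higher with SXB in every alternative run that kept them, including each omission of 1 library. The filter for a mean of at least 1 kept Serpina1e and removed Serpina3c and Cela2a. Among the fits on log2(value + 1) the lowest differences were those without libraries 1 to 4, at 0.99, 0.14 and 0.20. Leaving out 1 of 16 libraries moved the log2(value + 1) difference between 1.12 and 1.596 for Serpina1e, 0.25 and 0.38 for Serpina3c, and 0.24 and 0.42 for Cela2a, and leaving out 1 of 14 moved it between 1.21 and 1.68, 0.39 and 0.52, and 0.33 and 0.47. By construction of the scale, the differences of the low genes grew with a pseudocount of 0.1 (Serpina3c 0.95, Cela2a 0.70) or 0.01 (1.24 and 0.77), as a log2 ratio of means (1.47 and 0.97) and as a log2 ratio of medians (1.74 and 1.02). The count of listed genes called by limma was 0 in each omission of 1 of 16 libraries, 2 with a pseudocount of 0.01 and 56 without libraries 16 and 18. With 1 more library left out that 56 became 3 (SXB library 2 out), 16 (vehicle library 10 out), 19 (vehicle library 4 out), 25 (vehicle library 11 out), 29 to 33 without SXB library 1, 12 or 13 or vehicle library 8 or 15, and 56 to 76 otherwise.

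In the SXB group, calls of Pearson's r were lost without library 18 for the serpins (0.775; rho 0.786) and without the 2 farthest libraries for Serpina1e with Serpina3c (0.723; rho 0.771), Serpina1e with Cela2a (0.822) and Serpina3c with Cela2a (0.805; rho 0.714). The rho of Serpina3c with Cela2a also lost its call without library 18 (0.786). Over omissions of 1 library, r and rho ran from 0.775 to 0.957 and 0.786 to 0.929 for the serpins, from 0.881 to 0.948 and 1 to 1 for Serpina1e with Cela2a, and from 0.817 to 0.941 and 0.786 to 0.929 for Serpina3c with Cela2a. Fewer libraries were tested in each of these. In the vehicle group r of Serpina3c with Cela2a changed sign without library 16 (0.725), with a pseudocount of 0.01 (0.171) and without the 2 farthest libraries (0.635), while that of Serpina1e with Cela2a became -0.859 without the 2 farthest. Over omissions the former ran from -0.23 to 0.725 (rho 0.165 to 0.679), from -0.811 to -0.061 for the serpins (rho -0.6 to -0.091; r passed without library 14) and from -0.42 to 0.066 for Serpina1e with Cela2a (rho -0.505 to -0.036).

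No paired analysis was possible because the library numbers differ between the groups and no label pairs the samples. Depth is unknown, and rounding to 0.01 limits Serpina3c and Cela2a most.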
